A study of Mus musculus with 4 samples.

Results

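Phosphorylated STAT3 was mapped at the genes of its own upstream receptor complex: 6 receptor subunits of the gp130 cytokine family (Il6st, Lifr, Cntfr, Osmr, Il6ra and Il11ra1), 3 Janus kinases (Jak1, Jak2 and Tyk2) and Ptpn11, the gene of the phosphatase SHP2. These 10 genes were taken by name, out of 21887 protein-coding genes. No threshold on a measured value selects them, but earlier results of these data were known when they were chosen. They held 20 of the 12925 regions that the authors' table lists as reproducible between both ChIP libraries. Il6st had 1 region, Osmr 1, Lifr 7, Cntfr 3, Il11ra1 3, Jak1 4 and Jak2 3, and Cntfr and Il11ra1 shared 2 of theirs. Il6ra, Tyk2 and Ptpn11 had none.

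The cells were primary oligodendrocyte progenitors from the cortex of C57BL/6 mice, dividing cells that mature into the myelin-forming cells of the brain. Their medium held PDGF-AA at 10 ng/ml together with 20 ng/ml of bFGF, and ciliary neurotrophic factor (CNTF) was added at 100 ng/ml for 15 min before fixation. Chromatin was precipitated with an antibody to STAT3 phosphorylated on its activating tyrosine (pSTAT3), in 2 ChIP libraries, and 2 input libraries from the same treatment were not analysed here. Lysates were pooled before the antibody was added, and whether each library is a culture of its own is not stated, so their spread may be technical only. Every library came from treated cells. Binding before CNTF was therefore not measured, no group could be tested against another, and the values below are descriptions set beside the share of all genes or regions. ChIP measures no RNA, so the labelled cell type could not be checked against marker genes, and a bound region does not show that a gene is expressed or changed.

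Cytokines of this family bind receptor complexes built around gp130, the signalling subunit encoded by Il6st. CNTF first binds its own receptor alpha chain, the product of Cntfr, which has no signalling tail, and this complex then pairs gp130 with the LIF receptor, the product of Lifr. OSMR, IL6RA and IL11RA are receptor subunits for oncostatin M, interleukin 6 and interleukin 11. JAK1, JAK2 and TYK2 sit on the receptor tails and phosphorylate them. STAT3 docks there, is phosphorylated in turn, pairs and enters the nucleus, while SHP2 docks on gp130 and links it to the ERK pathway. In the brain these cytokines act on astrocytes, neurons and oligodendrocyte lineage cells.

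Of the 10 genes, Il6st, Osmr and Jak2 had peaks of both libraries over the RefSeq promoter, the 250 bp before a start and the 50 bp after it. Their bases before the start are shown because the results at promoters turn on them. They come from the RefSeq promoter table (GRCm38.p6), which held all 10 genes, and read 5′ to 3′ on the gene's strand. Capitals mark each match, with 1 letter differing, to TTCCNGGAA, the palindrome that STAT3 dimers prefer.
Il6st, chr13:112463820-112464069, plus strand: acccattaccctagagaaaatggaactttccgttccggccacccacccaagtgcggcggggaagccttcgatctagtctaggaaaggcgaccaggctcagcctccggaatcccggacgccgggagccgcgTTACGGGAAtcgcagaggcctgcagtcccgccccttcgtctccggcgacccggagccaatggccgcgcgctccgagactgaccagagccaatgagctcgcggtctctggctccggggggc
Osmr, chr15:6874314-6874563, minus strand: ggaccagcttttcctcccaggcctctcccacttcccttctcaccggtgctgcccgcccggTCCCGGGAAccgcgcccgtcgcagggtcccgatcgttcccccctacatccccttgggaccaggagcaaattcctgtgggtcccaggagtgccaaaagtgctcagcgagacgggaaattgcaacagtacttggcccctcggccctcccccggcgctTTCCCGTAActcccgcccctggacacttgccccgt
Jak2, chr19:29251553-29251802, plus strand: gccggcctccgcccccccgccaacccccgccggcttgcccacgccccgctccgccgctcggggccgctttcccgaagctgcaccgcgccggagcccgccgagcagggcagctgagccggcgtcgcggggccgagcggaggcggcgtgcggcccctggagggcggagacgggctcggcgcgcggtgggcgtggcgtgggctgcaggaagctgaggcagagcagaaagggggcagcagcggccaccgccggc

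The full motif TTCCNGGAA, searched on both strands, was in the promoter of 0 of the 10 genes. It was in a promoter of 1.38% of 17492 genes, and in 1.17% of all 21238 protein-coding promoter windows of this length. Of the 3365 windows with a peak of both libraries, 4.01% held it. The looser form TTCNNNGAA, which contains the first, was also in 0 of 10, beside 8.92% of genes. It was in 7.69% of all windows and 12.2% of those with both peaks. With at most 1 mismatch at the fixed letters of TTCCNGGAA, a form added after the values were seen, 3 of the 10 genes had a match, Il6st, Osmr and Il11ra1, beside 20.2% of genes. Of all windows, 17.8% held such a match, as did 33.8% of the windows with both peaks. No sequence outside these windows was searched. The strongest regions of Cntfr, Jak1, Jak2 and Lifr lie outside them, so whether those regions hold the motif is not known. The promoter regions of Il6st, Osmr and Jak2 were searched only in part.

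Positions in a match are counted from 1 at its first base on the gene's strand. The Il6st match reads TTACGGGAA (C3A against the motif), and its centre lay 116 bp before the start, 6 bp from the replicate 1 summit and 7 bp from the replicate 2 summit. Among 1920 promoter windows that held the summits of both libraries, 68 (3.54%) had a match centre within 10 bp of both. Osmr had 2 matches, TCCCGGGAA (T2C) at 186 bp and TTCCCGTAA (G7T) at 31 bp before the start. The nearer one lay 41 and 14 bp from the summits and the farther one 114 and 141 bp. The Il11ra1 match, TTCCAGCAA (G7C), was in a window without a peak. The Jak2 window held no match. The replicate 1 summit at Jak2 (446 bp before the start) and that of the weaker replicate 2 peak (778 bp) lay outside the window searched. This window was 81.0% G and C, beside 68.3% at Il6st and 66.0% at Osmr. The median was 56.3% over all windows and 61.3% over those with peaks of both libraries. A match is a run of letters, not a measured binding site.

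**Figure D1:**
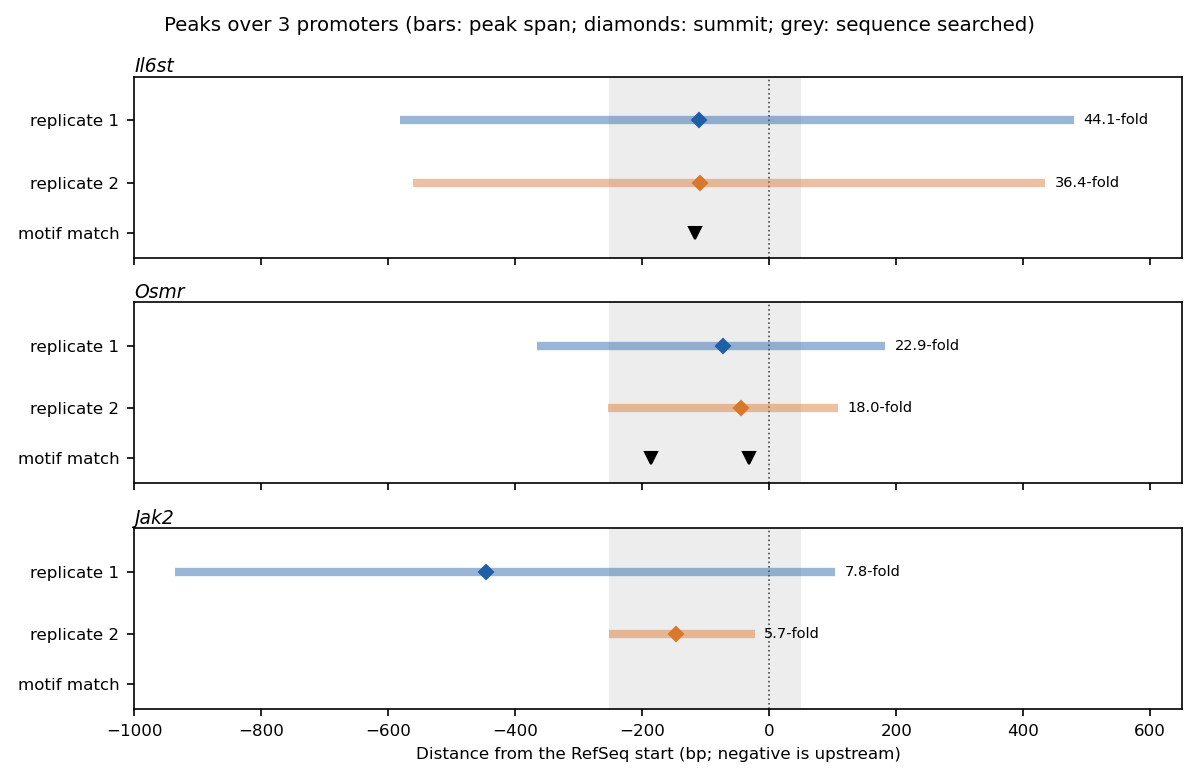
Peaks of replicate 1 (blue) and replicate 2 (orange) over the promoters of Il6st, Osmr and Jak2, by distance in bp from the RefSeq start (dotted line). Bars span each peak, diamonds mark summits, triangles mark motif matches with 1 mismatch, and grey is the window searched. The summits at Il6st lie 1 bp apart beside the match, and those at Jak2 lie 300 bp apart.

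Each library's value at a region is the fold of its strongest peak there, the authors' ratio of stacked fragments at the summit (the pileup) to the local background. Strength means the lower of both folds. The deeper list, replicate 1, held 42189 peaks and replicate 2 held 26649. The lowest background that the caller used was 4.72 fragments in replicate 1 and 2.91 in replicate 2, and read totals are not given in the sources used here. All regions had a median fold of 10.4 in replicate 1 and 7.51 in replicate 2, so replicate 1 was higher in general: in 95.1% of all regions, and in 20 of the members' 20.

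At Il6st, the gene of gp130, pSTAT3 enrichment was 44.1-fold in replicate 1 and 36.4-fold in replicate 2. The pileup was 251 and 141 fragments, and the -log10 q, the caller's significance over background, was 324 and 176. Both libraries were thus high, and the summits lay 110 and 109 bp before the start, 1 bp apart. The region (chr13:112463488-112464550, GRCm38, gene ENSMUSG00000021756) was 1063 bp wide, with its midpoint 51 bp upstream of the start. It ranked 109 of 12925 regions by strength, in the top 0.843%, and 26 of the 2734 regions at promoters (1 kb or less from a protein-coding start). By the lower pileup of both libraries it ranked 246 of 12925. This promoter stood alone: the next region of the table was 109.6 kb away, beside a median gap of 30.3 kb. The only other peak within 25 kb of the gene was in replicate 2, 10.84 kb upstream, at 3.07-fold.

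The promoter regions most like that of Il6st in both folds, among 2733 others, were at Map3k8 (44.8 and 36.9-fold), Taf5 (44.4 and 37.1), Fgr (45.2 and 36.2), Col16a1 (41.8 and 36.2) and Ikzf4 (41.6 and 37.1). Map3k8 encodes a kinase that activates the ERK pathway, Taf5 a subunit of the general factor TFIID, Fgr a Src family kinase, Col16a1 a collagen chain and Ikzf4 a zinc finger factor. Their distance from Il6st in log2 fold over both libraries ran from 0.030 to 0.088, which is smaller than the gap between the libraries at Il6st itself.

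Osmr, the receptor subunit that pairs with gp130 for oncostatin M, was also bound at its start. Its region (chr15:6874130-6874678, gene ENSMUSG00000022146) was enriched 22.9-fold in replicate 1 and 18.0-fold in replicate 2, with a pileup of 153 and 82. Both values were above the medians of all regions and below those of Il6st. Summits lay 72 and 45 bp before the RefSeq start. The midpoint was 108 bp upstream of the nearest listed start and 565 bp inside the outermost of 5 listed transcripts, so the region is upstream of some transcripts and within others. It ranked 1280 of all regions and 295 of the 2734 at promoters, and the next region was 79.3 kb away. Farther out, overlapping peaks 35.5 and 38.6 kb upstream were weak, at 4.96 and 3.96-fold and at 4.20 and 3.07-fold, and outside the table. Osmr and Il6st were alike in this single, isolated promoter region, and Il6st had the higher fold in both libraries.

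Cntfr, which encodes the CNTF binding chain, had its strong region inside the gene rather than at the start. At chr4:41677172-41677911 (gene ENSMUSG00000028444) the enrichment was 42.4-fold in replicate 1 and 32.2-fold in replicate 2, with a pileup of 250 and 136. These values were close to those of Il6st, with summits 16 bp apart. The region ranked 201 of 12925 and lay 18.5 kb downstream of the outermost RefSeq start. A short listed transcript starts nearer to it, 13.5 kb away on its other side. The other 2 regions were weak: 5.97 and 4.37-fold at 10.3 kb upstream of a listed start, and 5.00 and 4.35-fold at 48.9 kb downstream of the RefSeq start, past the end of the gene. They ranked 12517 and 12546, and neither passed the stricter reproducibility limit, an irreproducible discovery rate (IDR) of 0.01. None of the 6 RefSeq promoter windows of Cntfr was overlapped by a peak.

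Il11ra1, the interleukin 11 binding chain (gene ENSMUSG00000073889), was listed for both the strong and the 10.3 kb Cntfr region, because a long transcript of it starts beside Cntfr. Its own region, chr4:41755731-41756609, was enriched 21.4-fold and 13.8-fold, with a pileup of 125 and 53. It lay 4026 bp upstream of an Il11ra1 start but 40 bp from a start of Galt, so by position it is a promoter region of another gene. Replicate 2 reached 0.647 of replicate 1 there, the lowest ratio among the 20 regions, whose median was 0.777 beside 0.753 over all regions. Il11ra1 has a near-identical copy, Il11ra2, with 0 peaks within 25 kb in either list. How reads were assigned between the copies is not stated in these sources, which leaves values at such copies uncertain.

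Lifr, the subunit that pairs with gp130 for CNTF and LIF, had the most regions, 7. Of the 9298 protein-coding genes that the table lists, 1.84% had as many, and the median was 1. Gene length was not allowed for: regions are listed within 25 kb of any part of a transcript, and the RefSeq gene spans 106.9 kb. Only 1 of the 7 was strong: chr15:7084803-7085458 (gene ENSMUSG00000054263) at 26.2-fold and 18.7-fold, with a pileup of 196 and 99. It ranked 1165, its summits were 15 bp apart, and its distance was 44.4 kb upstream from the listed start nearest to it, but 5.48 kb from the RefSeq gene, whose span begins farther upstream. The other 6 ran from 5.36 to 7.52-fold in replicate 1 and from 4.30 to 6.25-fold in replicate 2, all below the medians of all regions. They lay 10.6, 21.1 and 54.2 kb upstream and 65.4, 69.4 and 72.4 kb downstream of the RefSeq start, of which the pair nearest to it upstream lies inside the longer RefSeq span. Those downstream are also listed for Egflam. Its start is nearer to them (28.1, 24.1 and 21.1 kb) than any listed Lifr start (40.7, 44.6 and 47.6 kb). Of these, the one at 65.4 kb lies inside a listed Lifr transcript. Among all 7, those 21.1 and 54.2 kb upstream and 69.4 kb downstream did not meet an IDR of 0.01. A further 3 pairs of overlapping peaks near Lifr were outside the table, 14.1 kb upstream (5.46 and 6.11-fold), 14.6 kb downstream (3.28 and 3.75-fold) and 64.8 kb downstream (6.25 and 7.77-fold), and replicate 2 was the higher library in all 3. The main Lifr promoter had a peak in replicate 1 alone, at 3.88-fold with its summit 321 bp upstream.

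Il6ra, the interleukin 6 binding chain, had no region in the table. Replicate 1 had a peak of 6.47-fold, with a pileup of 36, at 379 bp upstream of the start, where replicate 2 had none. Peaks of both libraries overlapped 54 kb downstream of the start, past the gene's end, at 7.86 and 4.17-fold, outside the table.

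**Figure D2:**
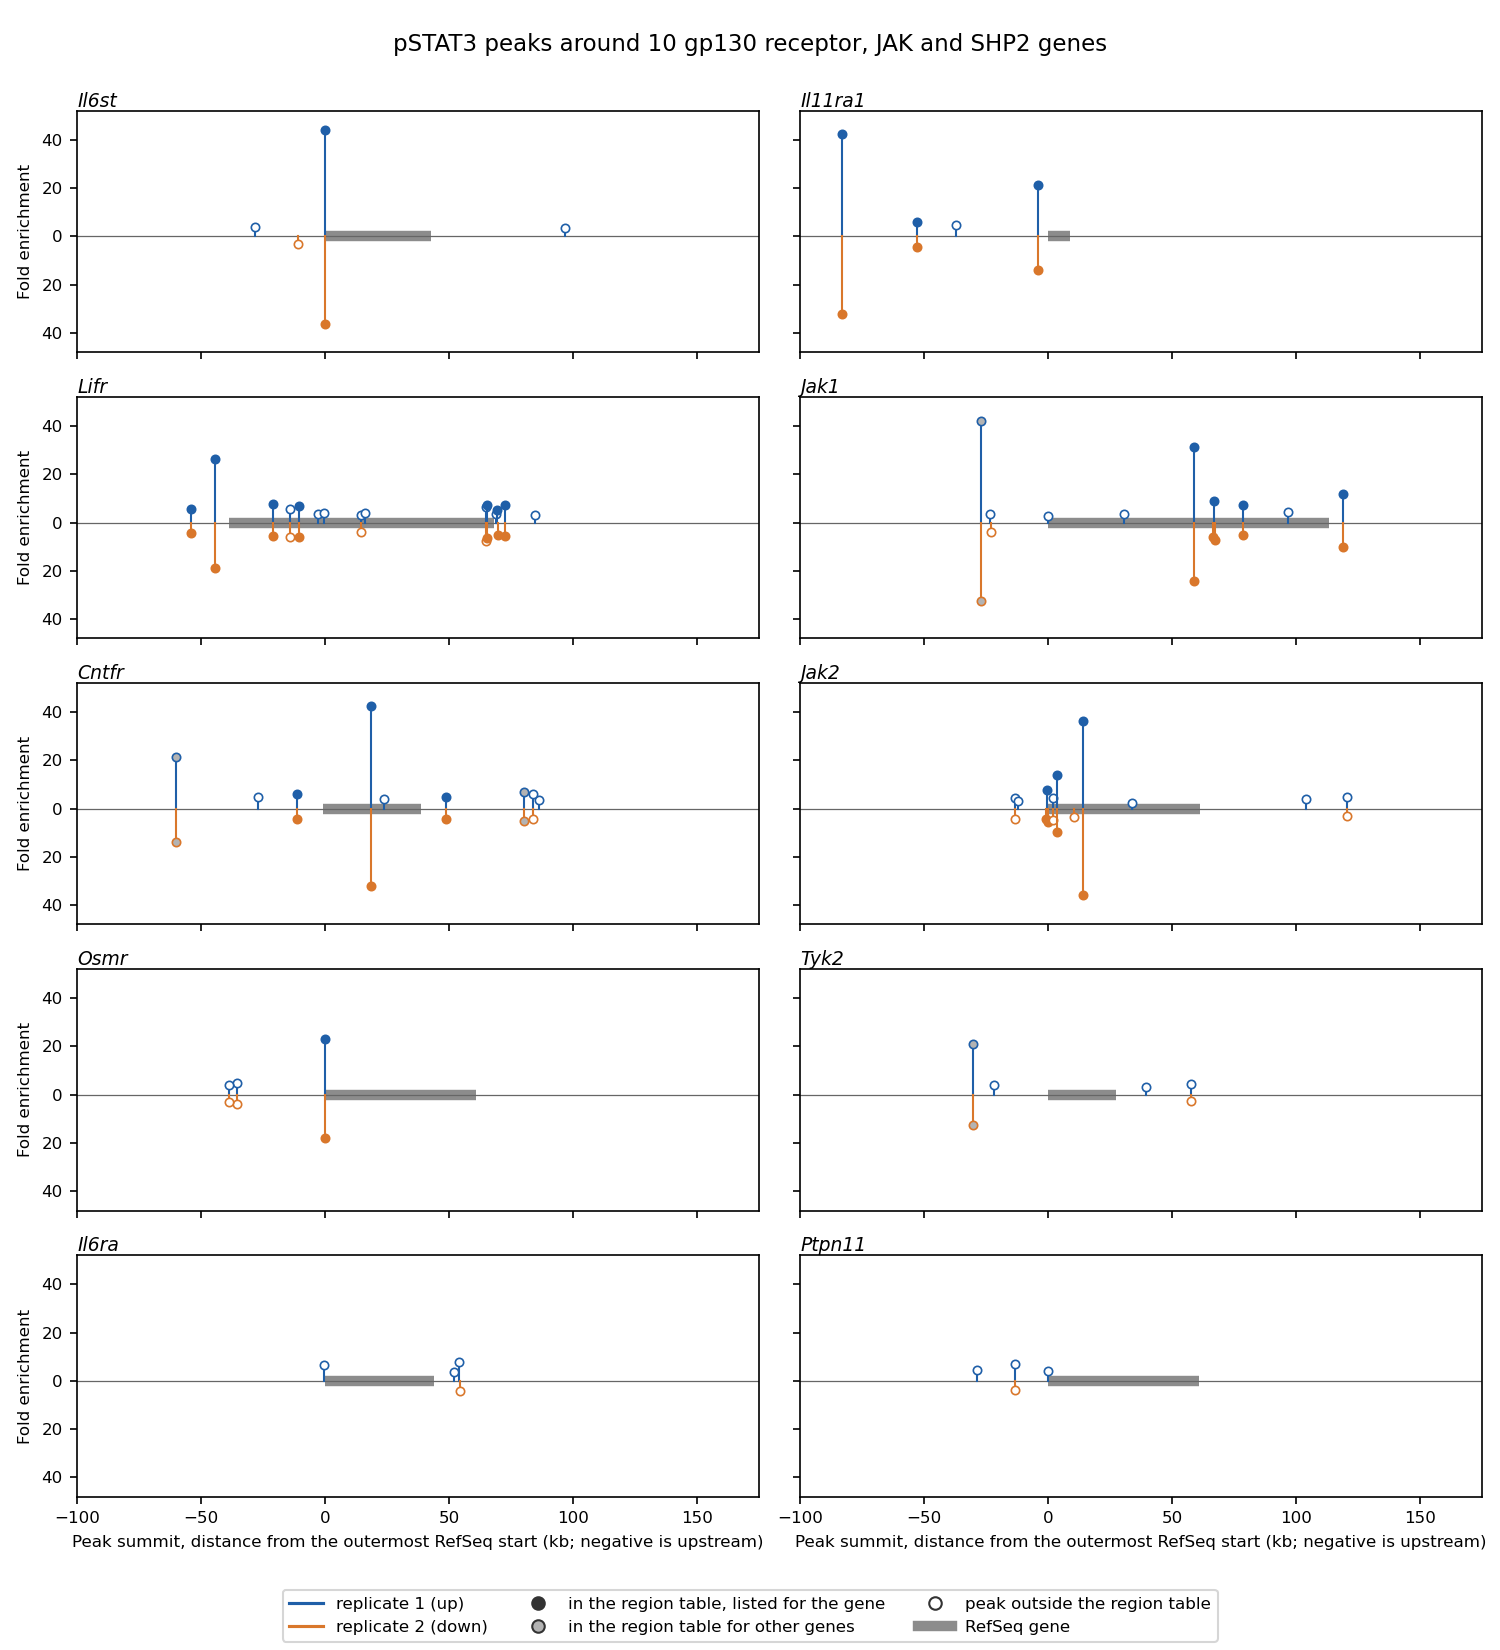
Fold enrichment of each peak within 60 kb of the 10 genes, and of the regions listed for them, by the distance of its summit in kb from the outermost RefSeq start. Replicate 1 points up and replicate 2 down, and filled points are regions listed for the gene. The tallest listed pair stands at the start in Il6st and Osmr, inside the gene in Cntfr, Jak1 and Jak2, and upstream in Lifr, and a taller pair listed for other genes stands 27.0 kb upstream of Jak1.

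Among the kinases, Jak2 and Jak1 both carried strong regions inside the gene and weak signal at the start. Jak2 (gene ENSMUSG00000024789) was enriched 36.2-fold in replicate 1 and 35.9-fold in replicate 2 at chr19:29265116-29266337, with a pileup of 242 and 152. The libraries were nearly equal there, with a ratio of 0.993, the highest of the 20 regions. This region lay 13.9 kb downstream of the start and ranked 123 of 12925, in the top 0.952%. A second, at chr19:29254804-29256257 and 3.70 kb downstream, was at 13.9 and 9.54-fold. The third covered the start, with its midpoint 441 bp upstream, at 7.82 and 5.71-fold and a pileup of 45 and 22. Its IDR of 0.0112 was above the stricter limit of 0.01. At this promoter the fold was lower than inside the gene in both libraries, its rank was 2006 of the 2734 promoter regions, and replicate 2 had 2 separate peaks within the region. The summits of the stronger peaks were 300 bp apart, beside a median of 20 bp over all regions, so these libraries do not fix the position within the promoter. Overlapping peaks outside the table lay 13.4 kb upstream (4.51 and 4.37-fold) and 2.16 kb downstream (4.31 and 4.77-fold).

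Jak1 (gene ENSMUSG00000028530) was enriched 31.3-fold and 24.4-fold at chr4:101206207-101206648, with a pileup of 180 and 103. That region ranked 556 and lay inside the gene, 58.8 kb downstream of the RefSeq start. Another, 119 kb downstream and beyond the gene's end, was at 12.0 and 10.0-fold. The remaining pair lay inside the gene, at 8.79 and 7.28-fold (66.8 kb downstream) and at 7.12 and 5.12-fold (78.6 kb downstream). The last of these is what counts Jak1 as bound within 5 kb, since a short listed transcript starts 1222 bp from it. That region had an IDR of 0.0105, above the stricter limit of 0.01, and a replicate 2 -log10 q of 7.30. It is also 92 bp from a start of Gm24468. The main Jak1 promoter had a replicate 1 peak of 2.76-fold with a pileup of 22, and none in replicate 2.

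The strongest region near Jak1 was not listed for it. At chr4:101291881-101292621, 27.0 kb upstream of the RefSeq start, the enrichment was 41.9-fold and 32.3-fold, with a pileup of 253 and 132 and a rank of 194. The table lists it for Gm12796, Gm12801 and Gm25124. Tyk2 likewise had no listed region and a strong neighbour, at chr9:21161092-21161672, 30.1 kb upstream, with 21.0 and 12.4-fold, listed for Cdc37 and Pde4a. Both were singled out after their values were seen. Within 25 kb of Tyk2 itself there were 2 peaks in replicate 1, of 3.88 and 3.32-fold, and 0 in replicate 2.

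Ptpn11, whose product SHP2 carries the signal from gp130 to ERK, also had no region. A replicate 1 peak of 4.20-fold, with a pileup of 23, lay over its promoter, with the summit 71 bp upstream, and replicate 2 had none there. Overlapping peaks 13.2 kb upstream, at 6.87 and 3.90-fold, were outside the table.

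By the strength of the strongest region, the order was Il6st, Jak2, Cntfr, Jak1, Lifr, Osmr and then the own region of Il11ra1. The ranges between the libraries overlap for 4 of the 6 pairs of neighbours in this order. They do not for Il6st and Jak2, whose nearest values were 36.4 and 36.2, nor for Cntfr and Jak1, whose nearest values were 32.2 and 31.3, and both gaps are smaller than the spread between the libraries at Il6st, Cntfr or Jak1. Il6st and Cntfr overlap. Replicate 2 was the lower library in every member region, so the order given is that of replicate 2 by construction. Only replicate 1 can check it. Within replicate 1 alone Cntfr comes before Jak2, and the other genes keep their order. Of the 9298 listed protein-coding genes, 1.62% had a strongest region at or above that of Il6st, 1.84% for Jak2 and 3.00% for Cntfr. The share was 7.78% for Jak1, 15.0% for Lifr and 16.3% for Osmr. The median listed gene reached 9.22-fold, below all of these.

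**Figure D3:**
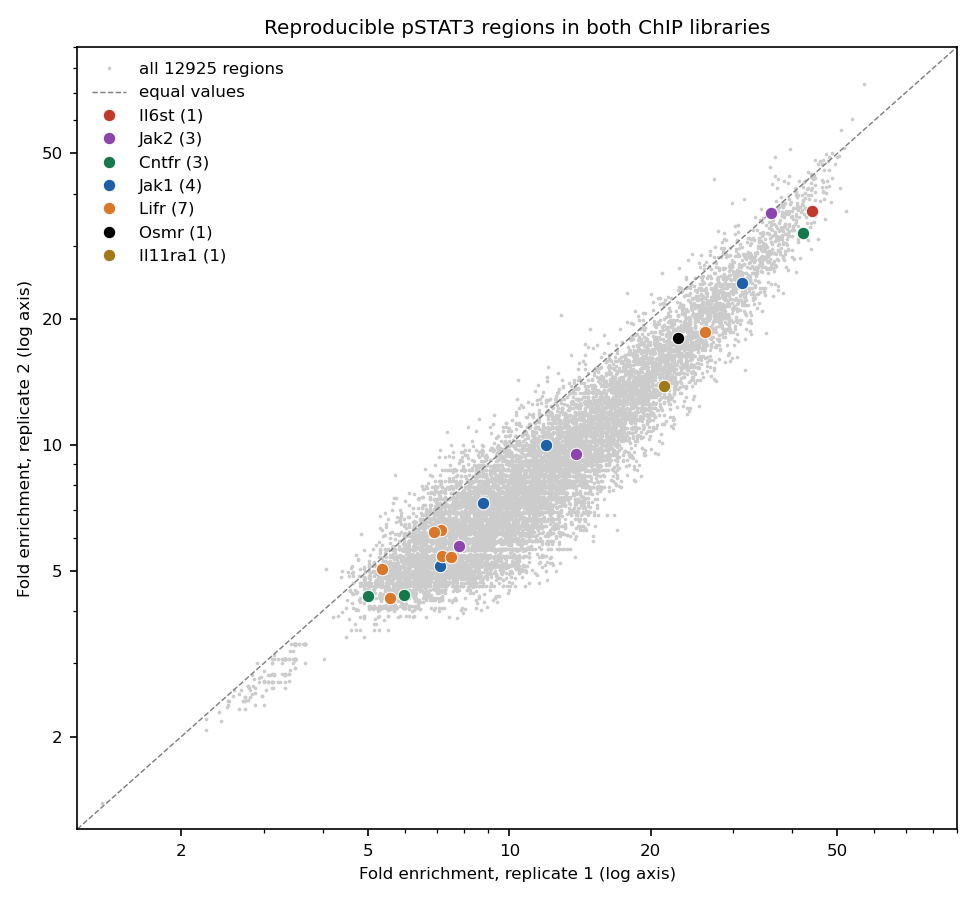
Fold enrichment in replicate 1 and replicate 2 (log axes) of all 12925 reproducible regions (grey) and the 20 member regions (colours, number of regions per gene; those shared by Cntfr and Il11ra1 are drawn as Cntfr). Member regions run from 4.30 to 36.4-fold by the lower value, beside 1.35 to 57.0-fold for all regions, and lie below the line of equal values.

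By distance, 3 of the 10 genes (Il6st, Osmr and Jak2) had a reproducible region within 1 kb of a listed start, beside 12.8% of all protein-coding genes. The Jak2 region did not meet an IDR of 0.01. Within 5 kb there were 5 of 10, with Il11ra1 and Jak1 added, beside 18.1%. Within 25 kb there were 7 of 10, with Lifr and Cntfr added, beside 34.4%. The share of the 10 genes was above that of all genes in each window, and with 10 genes chosen with results known this is a count and no test. The 5 kb count includes Il11ra1 and Jak1, whose regions are nearer to starts of other genes.

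The promoter windows gave a lower count once both libraries were required. A replicate 1 peak overlapped the window of 6 of 10 genes (Il6st, Lifr, Osmr, Jak1, Jak2 and Ptpn11), beside 31.6% of 17492 genes. A replicate 2 peak overlapped 3, beside 18.3%, and peaks of both libraries overlapped the same 3, Il6st, Osmr and Jak2, beside 17.3%. The promoter peaks of Lifr, Jak1 and Ptpn11 were thus in the longer list alone. At 2.76 to 4.20-fold they were weaker than each of the 20 listed regions in replicate 1.

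Of the 44 replicate 1 peaks within 25 kb of the 10 genes, 28 overlapped a replicate 2 peak, a share of 63.6% beside 56.6% of all replicate 1 peaks. In replicate 2 it was 30 of 32 peaks, beside 92.3% of all. These shares are near the background. The 28 shared peaks had a median of 7.17-fold in replicate 1 and the 16 unshared ones 3.63-fold, with a highest of 6.47, the peak at Il6ra.

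As a group the 20 regions were of middling strength: 9 reached the median strength of all regions, and their own median was 6.76-fold beside 7.48. Their median width was 495.5 bp beside 504 bp. Summits of the libraries lay within 50 bp of each other in 16 of 20 regions, beside 84.3% of all. An IDR of 0.01 or below was met by 13 of 20, beside 79.3% of all. The median gap to the next region was 10.35 kb beside 30.3 kb, with the Lifr, Jak1 and Jak2 regions lying near each other and Il6st and Osmr far from any other. By position, 3 of 20 lay within 1 kb of a start of the member, beside 23.9% of all regions within 1 kb of any start, and 10 of 20 lay inside a listed transcript of the member, beside 57.0% of all regions inside a listed transcript of any gene.

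The rest of the pathway was read from 6 lists of 81 other genes, of which 20 (24.7%) had a region within 5 kb, beside the 18.1% of all genes. Of 11 genes of gp130 family ligands and soluble partners, 1 had one, a share below the background. Of 28 other JAK-coupled receptors there were 4, also below it. Ifnar2 (30.2 and 25.8-fold) and Ifnar1 (14.9 and 7.93), the type I interferon receptor chains, were bound at their starts. Crlf2, the TSLP receptor chain, was at 25.9 and 18.2-fold, and Il13ra1, an interleukin 13 chain, at 8.22 and 7.42-fold. Jak3, the remaining Janus kinase, was at 24.7 and 14.6-fold, 95 bp upstream of its start.

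Downstream of the receptor, 3 of 7 STAT genes had a region within 5 kb. Stat3 was at 57.0 and 73.5-fold, above each of the 20 member regions in both libraries, and unlike them was higher in replicate 2. Stat2 (24.6 and 22.5), which carries interferon signals, was also bound near its start. Of 17 feedback and phosphatase genes there were 4, all of the SOCS family, which block JAKs and receptors: Socs3 (49.9 and 49.2-fold), Cish (29.9 and 23.3), Socs2 (15.0 and 12.9) and Socs1 (6.85 and 5.63). Of 17 adaptor and ERK or PI3K branch genes there were 7, the strongest being Nras (23.7 and 17.5), Gab2 (20.7 and 15.5) and Pik3r1 (9.17 and 8.62). Gab2 is a docking protein that binds SHP2, whose own gene had no region.

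**Figure D4:**
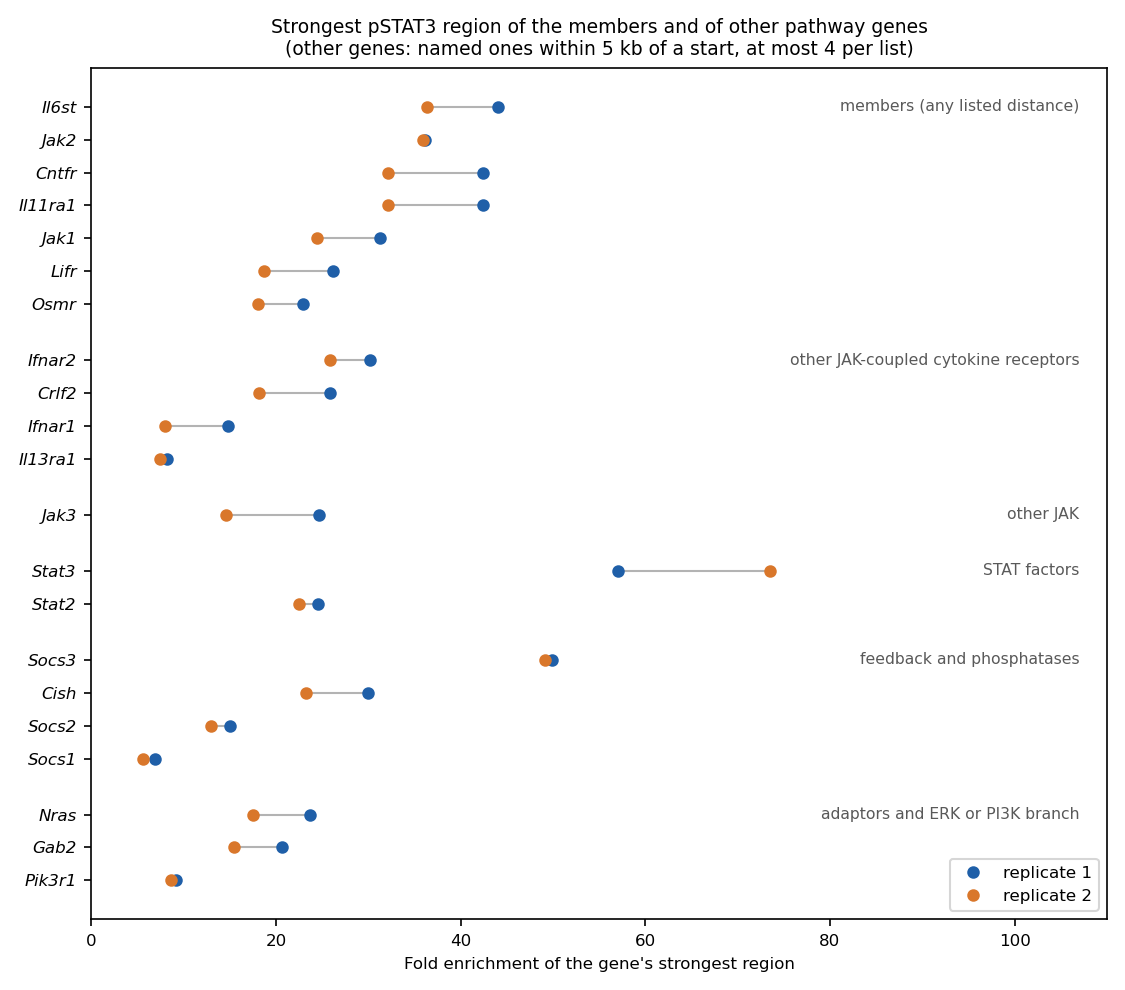
Fold enrichment of the strongest region of each member (any listed distance) and of named genes, up to 4 per pathway list, bound 5 kb or less from a start, in replicate 1 (blue) and replicate 2 (orange). Il11ra1 is drawn at the region it shares with Cntfr. Stat3 and Socs3 lie to the right of all members, and Il6st is the highest member in both libraries.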

How the data were processed

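The submitters' processing notes name CASAVA 1.8, Bowtie2, MACS2 and the build GRCm38.p3. Options, read totals and which input served which ChIP are not given in the sources used here. Depth can be read from the caller's background alone. For each ChIP library the authors deposited 1 peak list. Per the file headers these give the pileup signal (fragments at the summit) and the fold enrichment, a ratio to local background. Judged from the values, 1 is added to both terms of that ratio. A pair of damaged headers stands over the deposited -log10 p and -log10 q. The -log10 p recomputed from pileup and fold by a Poisson tail matched within 0.1% for 99.6% of replicate 1 peaks. In the authors' region table the adjusted p-value column holds the IDR, at most 0.05. Its fold and pileup columns were left out, because in 12924 of 12925 regions they equal (within 0.001) the -log10 p averaged over the deposited lists.

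Positions are 1-based. Starts are those of transcripts in the authors' table, and distances run from region midpoints. The table names transcripts with any part within 25 kb of a region. Another 4.50% of its entries, marked by the authors as the nearest, are farther away, as for 2 Lifr regions. Only transcript spans were used, so exons and introns were not told apart. RefSeq windows and gene spans are from GRCm38.p6, the same assembly at a later patch. Overlap was at least 1 bp. Python 3.11.15, numpy 2.4.6, pandas 2.3.3 and matplotlib 3.10.9 were used, and the steps were tested on simulated data.

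The members and lists were chosen with earlier results of these data known. Named genes were the 10 members, up to 4 genes per pathway list with the strongest region within 5 kb of a start, and the 5 promoter regions most like that of Il6st. Some genes that this rule names are not reported here. Alternatives were an IDR of 0.01, each replicate alone, windows of 1 and 25 kb, a -log10 q of at least 10, overlap of at least 50%, the nearest peak or the pileup for strength, and other motif forms.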

Additional observations from a re-analysis of the deposited data

How the results depend on the processing

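The count of members bound within 5 kb, 5, was 3 within 1 kb of a start, and 6 to 8 with 1 peak list alone (6 without replicate 1 and 8 without replicate 2). The share of all protein-coding genes was 18.1% for the main count and 12.8% within 1 kb. It rose to 31.1% without replicate 1 and 43.7% without replicate 2. The other pathway genes, 20 of 81, came to 34 within 25 kb, and 33 to 43 with 1 list alone (33 without replicate 1 and 43 without replicate 2). The single-list shares of all genes just given apply here too, and within 25 kb the share was 34.4%. A single list holds peaks that the table's reproducibility step removes. Of 27 alternatives to these counts, the 25 kb count, the motif count and the median over the members' strongest regions, 20 stayed within 1.5 times the count or within the spread between replicates. The others are those above, the Il11ra1 alternative and the motif count, 0, which was 3 with 1 mismatch allowed, also added after seeing the data. The median over the strongest regions of the 7 listed members was 32.2-fold, with the Cntfr region counted for Il11ra1 too, and 36.2-fold without replicate 2. Without replicate 1 this median is unchanged by construction, since replicate 2 was the lower library in every member region. With Il11ra1 at its own region, an alternative chosen after seeing the data, it was 24.4-fold. With an IDR of 0.01 or below, 4 members remained within 5 kb and Jak1 was lost, beside 14.8% of all protein-coding genes. A -log10 q of at least 10 in both lists left the same 4, beside 14.1%. So did RefSeq starts in place of the authors' transcripts, an alternative chosen after seeing the data. The share of all protein-coding genes was then 13.2%. No paired analysis was possible because all groups compared are regions of the same ChIP libraries and the inputs were not analysed here. With 2 libraries, the spread of each value is known from 1 difference.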
